A study of Mus musculus with 60 samples.

Results

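The regions described here are promoter peaks of H4K8ac that were present in every H4K8ac peak list of the study. They were selected on presence alone. A member is a peak of the right separate sedentary list whose annotation is promoter (within 3 kb of a transcript's start site) and which overlaps, by at least 1 bp, a peak in each of the other 5 lists. Of the 6065 promoter peaks of that list, among 25159 peaks in all, 1059 were members (17.5%). They carried 951 gene symbols, and 79 genes had 2 or more members.

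H4K8ac is the acetylation of lysine 8 on the tail of histone H4. It is placed by lysine acetyltransferases at the promoters and bodies of transcribed genes, is removed by histone deacetylases and is bound by bromodomain proteins. In hippocampal neurons, histone acetylation is known for its link to activity-dependent transcription and to long-term memory. H3K27me3, the mark compared with it below, is deposited by the Polycomb repressive complex 2 and is known from silenced developmental genes.

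The peaks came from CUT&RUN-seq, in which an antibody tethers a nuclease that releases the marked DNA from isolated nuclei. All mice were male Emx1-NuTRAP animals, in which Cre expressed from the Emx1 locus switches on tags for nuclei and ribosomes, so that nuclei were those of Emx1-lineage cells, mainly hippocampal excitatory neurons. Running wheels were given to the exercised mice on postnatal days 21 to 41 (early-life exercise, ELE) and not to the sedentary ones. Both hippocampi gave nuclei and RNA in a single preparation (simultaneous isolation, SIT), or nuclei were prepared separately from the left or the right hippocampus, and these isolations are called the 3 arms. By the labels, each H4K8ac list stands for 4 SIT samples or for 3 samples of a separate arm, but the lists do not separate mice. Per the methods, libraries were excluded for a high false discovery rate, all of them exercised H4K8ac libraries and more of them separate than SIT. Exercised lists may thus stand for fewer libraries than the labels give, which touches every comparison of exercised with sedentary widths below. The methods give the exclusions by kind of isolation and do not split those of the separate arms into left and right. For peaks set against RNA changes, fewer mice per group are stated than the SIT labels hold. The reporting summary gives this reduction, after removal of outliers, for the epigenetic and the transcriptional study together. Sedentary samples were among those removed, for the RNA content of their reads. The sedentary SIT list may thus also stand for fewer libraries than its labels give. Each list is therefore 1 pooled value with no replicate error, and the depth behind it is unknown, since the minimum of reads per library that the methods set does not tell how many entered a list. As nuclei were pooled, fewer marked cells and less mark per cell cannot be told apart.

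The 6 lists differed in length, from 12168 peaks in the exercised left list to 38136 in the exercised SIT list, and membership turned on the shorter ones. Of the 6065 promoter peaks, 481 overlapped none of the other 5 lists, 876 overlapped 1, 1226 overlapped 2, 1262 overlapped 3 and 1161 overlapped 4. Among the 1161 peaks that lacked exactly 1 list, the exercised left list was the missing one at 461, the exercised right list at 358, the sedentary SIT list at 262, the sedentary left list at 66 and the exercised SIT list at 14. The widest peaks just outside the selection lay at a second Nfix promoter (11471 bp, absent from the exercised right list), Lncenc1 (9217 bp, absent from the sedentary SIT list), Nol4 (8925 bp, absent from the exercised left list), Lims1 (8335 bp, absent from the exercised right list) and Dlgap3 (7226 bp, absent from the sedentary SIT list). Just inside it were 5 members whose smallest overlap with a list was 28 to 46 bp, namely at Strn4 (28 bp), Prxl2a, Zbtb20 and Gmppa (30 bp each) and Adgrb3 (46 bp).

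The exercised left list was also uneven across chromosomes. It held 43 peaks on chromosome 19, where the other lists held 240 to 656, and 1 peak on chromosome X, where the others held 41 to 127. Accordingly 5 of 134 promoter peaks on chromosome 19 were members (3.73%) and 0 of 39 on chromosome X, against 11.0% on chromosome 7 and 24.1% on chromosome 14, which bounded the other autosomes. Genes of chromosomes 19 and X therefore entered rarely or not at all, and the counts of listed genes are given below with and without it.

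The sequences before the start sites of members spanned the range from CpG-free to CpG-rich. The following stretches end at or shortly before the start site of the transcript to which the authors assigned the peak, read 5′ to 3′ on the gene's strand in GRCm38, with every CpG in capitals; all lie outside annotated exons. Those shown first belong to the widest members. Mef2c (chr13:83652638-83652813, plus strand, 75 bases before the start site), a transcription factor of activity-dependent neuronal gene programs, held 3 CpGs in 176 bases, and Nr2f1 (chr13:78197039-78197203, minus strand), a nuclear receptor that patterns the cortex, held 1 in 165. Gm17750 (chr13:84064773-84065022, minus strand), a long intergenic noncoding RNA, held 2 in 250 bases. E130114P18Rik (chr4:97778079-97778298, minus strand, 31 bases before the start site), whose member also lies over the nuclear factor I gene Nfia, held 18 in 220.
Mef2c: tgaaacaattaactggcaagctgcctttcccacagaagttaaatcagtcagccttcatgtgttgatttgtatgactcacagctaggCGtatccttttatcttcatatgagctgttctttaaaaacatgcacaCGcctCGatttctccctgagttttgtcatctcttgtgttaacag
Nr2f1: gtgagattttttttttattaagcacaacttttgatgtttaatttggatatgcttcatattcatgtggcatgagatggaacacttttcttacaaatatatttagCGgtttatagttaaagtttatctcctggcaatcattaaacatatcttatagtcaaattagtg
Gm17750: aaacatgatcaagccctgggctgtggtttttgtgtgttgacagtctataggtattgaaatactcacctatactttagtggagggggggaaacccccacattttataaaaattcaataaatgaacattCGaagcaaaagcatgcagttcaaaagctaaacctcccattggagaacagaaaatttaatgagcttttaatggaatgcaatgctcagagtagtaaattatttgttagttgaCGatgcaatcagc
E130114P18Rik: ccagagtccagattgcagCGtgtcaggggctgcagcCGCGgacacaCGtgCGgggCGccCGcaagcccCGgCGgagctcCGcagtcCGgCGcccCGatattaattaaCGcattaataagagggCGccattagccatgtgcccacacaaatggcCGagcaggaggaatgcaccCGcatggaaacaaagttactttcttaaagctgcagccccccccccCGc

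Neuronal genes with a member showed the same range. Neurod1 (chr2:79456786-79457001, minus strand, 35 bases before the start site), a basic helix-loop-helix factor of excitatory neurons, held 12 CpGs in 216 bases. Zbtb20 (chr16:42907142-42907391, plus strand), a zinc finger factor that specifies CA1 pyramidal identity, held 3 in 250. Snap25 (chr2:136713203-136713452, plus strand), a SNARE protein of vesicle fusion, held 13, and the deacetylase genes Hdac9 (chr12:34618494-34618743, minus strand) and Hdac11 (chr6:91156415-91156664, plus strand) held 1 and 7.
Neurod1: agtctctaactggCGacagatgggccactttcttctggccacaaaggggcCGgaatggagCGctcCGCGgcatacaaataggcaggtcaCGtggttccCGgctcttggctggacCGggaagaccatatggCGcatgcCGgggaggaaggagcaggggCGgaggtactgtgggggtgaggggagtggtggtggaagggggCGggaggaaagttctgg
Zbtb20: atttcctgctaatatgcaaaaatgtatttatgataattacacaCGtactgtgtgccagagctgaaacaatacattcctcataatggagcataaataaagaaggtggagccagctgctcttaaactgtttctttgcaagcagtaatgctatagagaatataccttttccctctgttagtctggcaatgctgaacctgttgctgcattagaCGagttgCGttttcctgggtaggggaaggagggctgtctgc
Snap25: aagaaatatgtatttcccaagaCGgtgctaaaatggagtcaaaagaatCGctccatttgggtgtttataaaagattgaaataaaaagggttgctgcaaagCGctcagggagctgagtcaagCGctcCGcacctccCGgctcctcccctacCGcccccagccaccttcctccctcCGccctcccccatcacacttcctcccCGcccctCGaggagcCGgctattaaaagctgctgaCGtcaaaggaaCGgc
Hdac9: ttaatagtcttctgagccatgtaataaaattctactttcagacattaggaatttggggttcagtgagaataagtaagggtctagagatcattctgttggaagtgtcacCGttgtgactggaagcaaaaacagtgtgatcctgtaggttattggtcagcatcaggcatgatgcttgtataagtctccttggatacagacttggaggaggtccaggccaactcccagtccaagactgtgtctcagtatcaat
Hdac11: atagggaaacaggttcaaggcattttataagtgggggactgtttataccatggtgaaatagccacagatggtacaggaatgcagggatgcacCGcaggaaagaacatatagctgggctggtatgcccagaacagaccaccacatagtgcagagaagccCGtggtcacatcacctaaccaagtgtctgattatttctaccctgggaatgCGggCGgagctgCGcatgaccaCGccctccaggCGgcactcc

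For members shifted in relative width in every arm, and for a gene that every cell uses, the stretches were of Coro2b (chr9:62537045-62537294, minus strand, 15 CpGs in 250 bases), a coronin that binds actin, Nrn1 (chr13:36730681-36730930, minus strand, 6 CpGs), the activity-induced neuritin, and Atp5g2 (chr15:102671128-102671377, minus strand, 11 CpGs), a subunit of mitochondrial ATP synthase.
Coro2b: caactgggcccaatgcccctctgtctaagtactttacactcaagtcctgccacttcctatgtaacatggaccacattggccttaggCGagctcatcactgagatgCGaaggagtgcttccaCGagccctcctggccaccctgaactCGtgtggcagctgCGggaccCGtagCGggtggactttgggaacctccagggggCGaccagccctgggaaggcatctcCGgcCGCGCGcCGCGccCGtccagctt
Nrn1: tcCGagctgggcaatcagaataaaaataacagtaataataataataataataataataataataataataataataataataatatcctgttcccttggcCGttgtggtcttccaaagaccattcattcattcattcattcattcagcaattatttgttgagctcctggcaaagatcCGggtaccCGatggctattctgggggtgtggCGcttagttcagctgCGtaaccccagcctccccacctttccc
Atp5g2: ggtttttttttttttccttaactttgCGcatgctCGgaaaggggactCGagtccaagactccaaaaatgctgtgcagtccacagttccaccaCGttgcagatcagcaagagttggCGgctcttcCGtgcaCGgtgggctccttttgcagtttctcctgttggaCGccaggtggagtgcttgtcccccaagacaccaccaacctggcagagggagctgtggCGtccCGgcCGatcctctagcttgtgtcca

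Members were wide peaks. Their median width in the right separate sedentary list was 2827 bp, against 1754 bp for the other 5006 promoter peaks. The share of promoter peaks that were members was 4.20% in the narrowest of 5 width classes (722 to 1429 bp), 6.44%, 9.72% and 19.04% in the next 3, and 47.9% in the widest (2694 to 35468 bp). A wide peak meets more of another list by its size alone, so these values describe the selection and were not tested. Being found in every list was not particular to promoters: 18.1% of exonic, 17.8% of 3′ UTR, 14.2% of distal intergenic and 13.2% of intronic peaks of the same list overlapped all of the other 5 lists, beside 17.5% of promoter peaks.

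The 10 widest members, by the median over the lists of the summed width of the peaks over each member, were assigned to 5 genes of transcription factors, 4 noncoding RNA genes and E130114P18Rik, a gene annotated as protein-coding. Widest of all was a member at Tcf4, an E-protein of the basic helix-loop-helix class. Its widths were 31082 and 38163 bp in the sedentary and exercised SIT lists, 17091 and 41266 bp in the left lists and 35468 and 30502 bp in the right lists. The exercised list was the wider one in SIT and left, and the narrower one in right. Tcf4 was also the gene with the most members, 7, followed by Atf7ip, Coro2b, Msra and Zeb2 with 4 each.

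Bcl11a, a zinc finger repressor of cortical projection neurons, had widths of 17180 (sedentary) and 22994 bp (exercised) in SIT, 22596 and 32505 bp in left, and 19822 and 16285 bp in right. Nfix, a nuclear factor I gene, had 19876 and 20869 bp in SIT, 25304 and 23515 bp in left, and 21500 and 14443 bp in right. Mef2c had 8391 and 16516 bp in SIT, 16176 and 11571 bp in left, and 15321 and 10159 bp in right. For none of these did the exercised list lie on the same side of the sedentary one in all 3 arms.

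Among the noncoding RNAs, Gm17750 had 23305 and 21615 bp in SIT, 20398 and 18824 bp in left, and 19232 and 17606 bp in right, the exercised list being the narrower one in each arm. Of its 19232 bp in the right separate sedentary list, 16608 bp were covered in every list, the longest common part of any member. At C130071C03Rik, widths ran from 1081 bp in the sedentary SIT list to 28791 bp in the exercised SIT list, and no base was common to the 6 lists. At 3110039M20Rik, 229 bp of 15876 were common, with 5082 bp in the sedentary SIT list against 10796 to 19051 bp in the others. The plot of the widest members shows these steady and unsteady cases side by side.

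**Figure D1:**
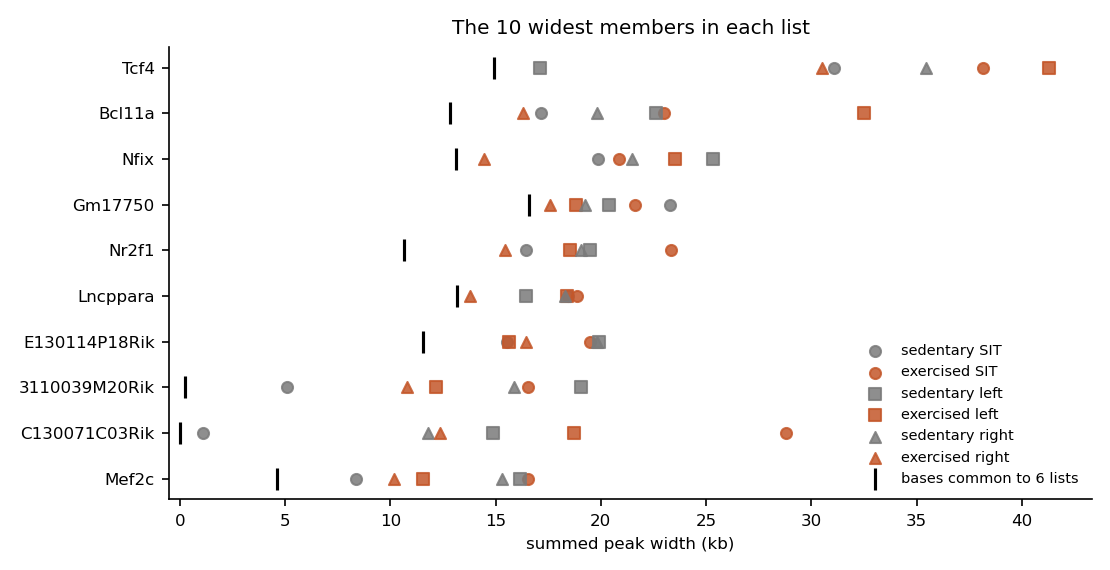
Summed peak width in kb (horizontal axis) over each of the 10 widest members, 1 per gene (rows), with 1 symbol per list: grey for sedentary, orange for exercised, circles for SIT, squares for left and triangles for right. Vertical ticks mark the bases covered in every list, which run from 0 at C130071C03Rik to 16608 bp at Gm17750.

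Over all members, the bases shared by the 6 lists were fewer than the widths. The part covered in every list had a median of 1046 bp per member and made up 35.3% of the bases of the members, and 109 members (10.3%) had no base common to the 6 lists although each list held an overlapping peak. Msra, which codes for methionine sulfoxide reductase A, had members of both kinds of sharing within 1 gene: at 1 of its 4 members 3923 of 4914 bp were common, and at another 572 of 2291 bp. Members of 1 gene can lie on 1 peak of another list, as 82 members (7.74%) did with a neighbour in the exercised SIT list and 32 (3.02%) in the sedentary SIT list, so members are not independent of each other.

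Member widths differed between the lists. Median member width was 2236 bp in the sedentary and 3276 bp in the exercised SIT list, 2962 and 2396 bp in the left lists, and 2827 and 1954 bp in the right lists. The exercised list was thus the wider one in SIT, with a median log2 ratio of 0.53 and 882 of 1059 members wider, and the narrower one in the separate arms, with medians of −0.29 (346 wider) and −0.50 (206 wider). The other promoter peaks found in both lists of an arm had medians of the same sign, 0.51, −0.23 and −0.26, the last closer to 0 than that of members (31.8% of them wider in the exercised right list, against 19.5% of members; not tested). No replicate error can be given for any of these values, and peak width in a list also depends on its depth, whose part was not tested.

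**Figure D2:**
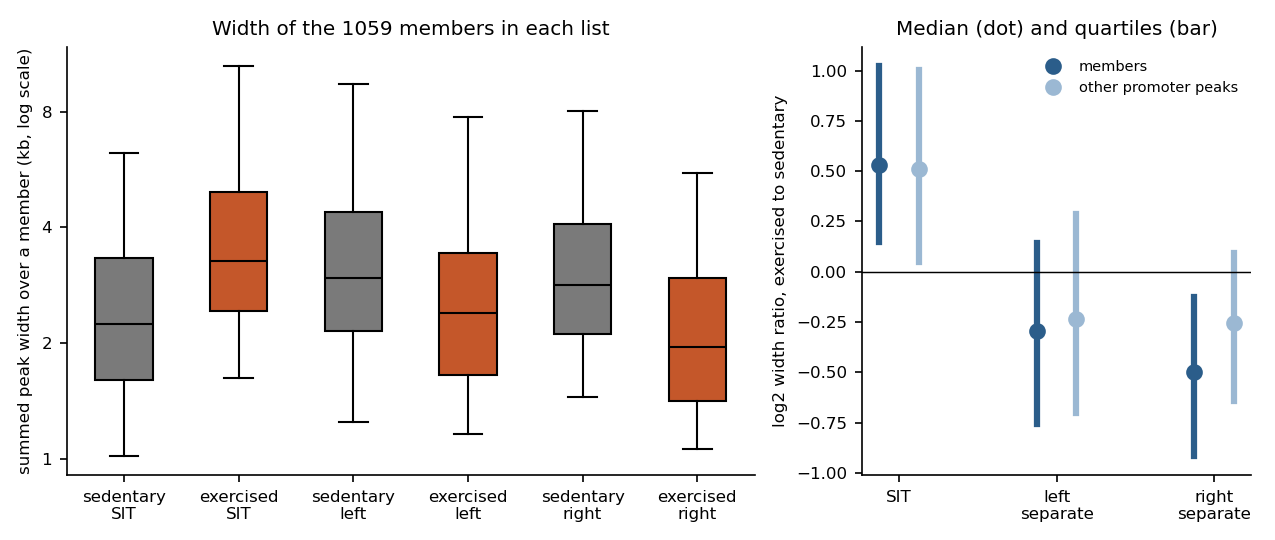
Left, summed peak width over each of the 1059 members by list, in kb on a log scale; boxes give the quartiles, lines the medians and whiskers the 5th and 95th percentiles. Right, the log2 width ratio of exercised to sedentary list in each arm for members and for other promoter peaks, with dots at the medians and bars over the quartiles; members lie above 0 in SIT (0.53) and below it in the left (−0.29) and right (−0.50) arms.

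Relative to the median of its arm, the width ratio of a member in one arm told little of its ratio in another. Spearman's rho across the 1059 members was −0.017 between SIT and left, 0.0041 between SIT and right and 0.067 between left and right, while log2 widths themselves correlated with rho of 0.42 to 0.66 between pairs of lists. These are descriptions across regions that share lists and in part peaks. Relative ratios were above 0 in all 3 arms at 146 members and below 0 at 128. As listed, with no scaling to the arm, 63 members were wider and 98 narrower in all 3 arms. Scaling to the arm puts equally many members above and below 0 in each arm by its construction, so these counts are no result about a balance of wider and narrower members.

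Members were ranked by the smallest of their 3 relative ratios, which asks for a shift in every arm and not for the largest shift on average. By that rank Coro2b led the 5 members shifted to wider, with widths of 1229 (sedentary) and 4906 bp (exercised) in SIT, 3103 and 5628 bp in left, and 1409 and 2837 bp in right. Its log2 ratio as listed was 2.00, 0.86 and 1.01, and the exercised list was the wider one in every arm. In the 3 exercised lists and in the sedentary left list, the peak over this member also lay over the neighbouring Coro2b member, whereas in the sedentary SIT and right lists it did not. Inside the member, covered bases were 1205 (sedentary) and 1064 (exercised) in SIT, 1409 and 1124 in left, and 1409 in both right lists, so the added width lay outside it. The others were Kcns2, a silent subunit of voltage-gated potassium channels, Tmco6, Slc44a1, a choline transporter, and Smarca2, an ATPase of the BAF remodelling complex, with ratios as listed between 0.22 (Smarca2, right) and 1.76 (Smarca2, left). At Kcns2, widths were 842 (sedentary) and 2092 bp (exercised) in left, and 1582 and 2525 bp in right. The exercised left peak lay over 135 bp of the Kcns2 member and no base was common to the lists, so most of its 2092 bp lay outside the member.

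Members shifted to narrower were ranked by the highest of their 3 relative ratios, taking the 5 lowest. Among them, Nrn1 codes for neuritin, which promotes neurite outgrowth. Its widths were 3558 (sedentary) and 2631 bp (exercised) in SIT, 2735 and 1253 bp in left, and 4682 and 1463 bp in right, with log2 ratios of −0.44, −1.13 and −1.68. Xcl1, a chemokine gene whose member lies 2701 bp from the start site, had ratios of −1.17, −1.50 and −1.65. The others were the pseudogene 1810014B01Rik, the antisense RNA Gm4814 and Zfp37, a zinc finger gene, with ratios between −2.12 (Gm4814, left) and −0.19 (1810014B01Rik, SIT). Inside the member, covered bases in SIT went the other way at Nrn1 (1965 sedentary, 2631 exercised), Gm4814 (2442, 3049) and Zfp37 (2425, 3097). They were near equal at 1810014B01Rik (2413, 2411) and fell at Xcl1 (3452, 1387). In left, covered bases fell at all 5, as at Nrn1 (2697, 1253). These 10 members were chosen for their ratios, which are given as a description.

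Closeness to a start site was fixed by the selection, which took peaks annotated within 3 kb of one, so the positions that follow are a description. The start site of the assigned transcript lay inside 779 members (73.6%; 95% Wilson interval 70.8 to 76.1%) and inside 2897 of the other promoter peaks (57.9%; 56.5 to 59.2%), and 913 members (86.2%) were annotated within 1 kb of it. The intervals here and below cover counting error over peaks only. Members were wider than the others, and the share was also taken within 5 width classes of the promoter peaks. From narrow to wide it was 54.9%, 55.1%, 75.4%, 77.5% and 75.7% for members and 47.0%, 55.7%, 56.6%, 66.8% and 70.05% for the others, and the intervals of both sets were apart in the third and the fourth class. At 363 members (34.3%) the start site lay in the bases common to all lists. Of the 280 members without it, 149 lay upstream and 131 downstream.

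Across the 1035 different start sites of members, the share covered by a peak was highest between 50 and 250 bases upstream in every list, from 59.9% in the exercised right list to 81.4% in the exercised SIT list. It fell on both sides, to 15.6 to 25.6% at 2950 bases upstream and to 17.1 to 32.8% at 2950 bases downstream. Over the first 1 kb, mean coverage was lower after the start site than before it in 5 of 6 lists (57.8% and 59.9% in the sedentary SIT list). At start sites of other promoter peaks, the highest coverage was 15.2% in the exercised left list and 63.8% in the list from which the peaks were taken.

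**Figure D3:**
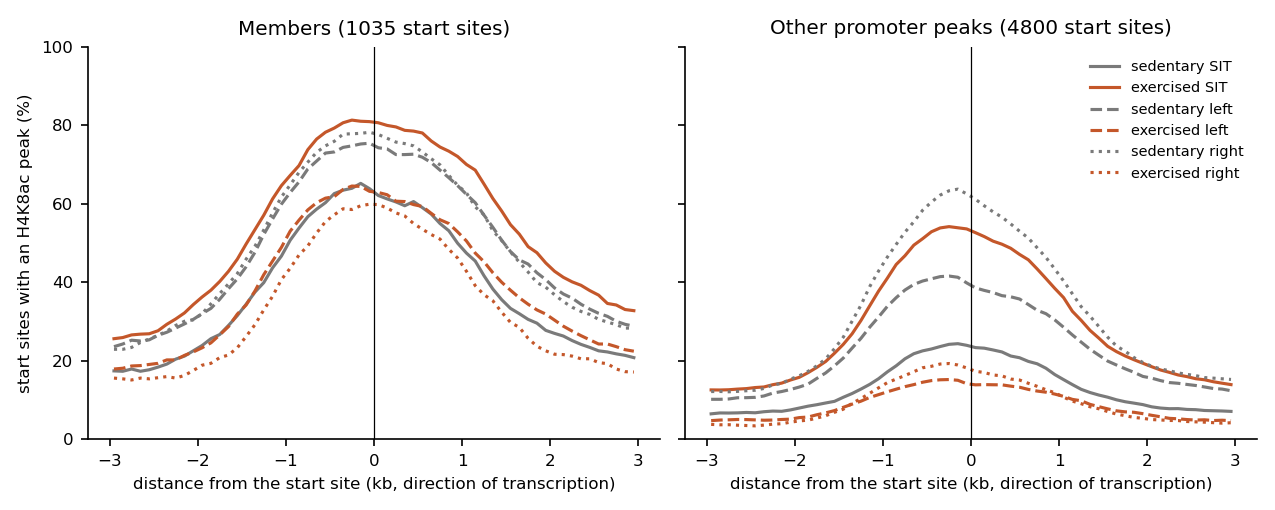
Share of start sites covered by an H4K8ac peak (%), by distance from the start site in kb in the direction of transcription, for members (left) and other promoter peaks (right); each line is 1 list, grey for sedentary and orange for exercised, solid for SIT, dashed for left and dotted for right. Lines of members peak just upstream of the start site, between 59.9 and 81.4%.

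The listed markers of excitatory neurons had members more often than the listed genes that every cell uses, as a description of the selected peaks. By the authors' assignment, 821 of 21924 annotated protein-coding genes had a member, a background of 3.74%, and 19.9% had a promoter peak in the right separate sedentary list. Of 12 markers of excitatory neurons, 5 had a member (41.7%; Wilson interval 19.3 to 68.0%), namely Neurod1, Neurod6 and Tbr1, all transcription factors of glutamatergic neurons, Nrgn, the calmodulin-binding neurogranin, and Zbtb20. The driver gene Emx1, the vesicular glutamate transporter gene Slc17a7 and the kinase gene Camk2a had a promoter peak in 4 lists each and no member. Neurod6 also had a promoter peak in 4 lists. Its member was overlapped in the remaining lists by peaks not assigned to its promoter. Of the 12 markers, 4 had a promoter peak in all 6 lists. Neurod2 and Prox1 had a promoter peak in 1 list each, and Wfs1, a CA1 marker, in none.

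The excitatory members varied widely between lists. Neurod1 had 6234 (sedentary) and 12746 bp (exercised) in SIT, 6817 and 7677 bp in left, and 5328 and 7403 bp in right, the exercised list being the wider one in each arm. Tbr1 had 2464 and 13469 bp in SIT, 7622 and 1736 bp in left, and 4549 and 6091 bp in right, and Neurod6 had 1818 and 9953 bp in SIT, 10208 and 4702 bp in left, and 4130 and 1539 bp in right. The last 2 genes thus had no common direction over the arms.

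Markers of other cell types had members about as often as any protein-coding gene, 2 of 42 (4.76%; 1.32 to 15.8%) beside the background of 3.74%. None of 10 GABAergic interneuron markers (Gad1, Gad2, Slc32a1, Pvalb, Sst, Vip, Dlx1, Dlx2, Lhx6 and Npy) had a promoter peak in any of the 6 lists, as was so for 60.2% of all protein-coding genes. Of these 10, Dlx2 had an H4K8ac peak elsewhere in 6 lists, Sst and Npy in 4, Gad1 in 2 and Vip in 1. None of 8 astrocyte markers and none of 8 endothelial markers had a member, although the astrocyte glutamate transporter gene Slc1a2 had a promoter peak in each list. Of 8 oligodendrocyte markers 1 had a member, Mbp (myelin basic protein), and of 8 microglia markers 1, P2ry12 (a purinergic receptor). The member at Mbp held its start site, with widths of 1354 to 2458 bp. That at P2ry12 lay 1755 bp upstream of the start site and also over Med12l, a gene that spans P2ry12, so which gene it belongs to cannot be told from the position.

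Among neuronal functions, 4 of 18 activity-induced immediate early genes had a member (22.2%; 9.001 to 45.2%, beside the background of 3.74%), namely Junb, Nr4a3, Ier2 and Bdnf. The AP-1 subunit gene Junb had widths of 4481 (sedentary) and 3325 bp (exercised) in SIT, 2994 and 1184 bp in left, and 2202 and 1568 bp in right, narrower in the exercised list of every arm. Bdnf, the brain-derived neurotrophic factor gene, had 1731 and 1978 bp in SIT, 3047 and 1221 bp in left, and 2299 and 1192 bp in right. Members of these genes mostly lay beside the start site, 130 bp upstream at Junb, 1130 bp upstream at Ier2 and 1549 bp downstream at Bdnf, and only Nr4a3 had an annotated start site inside a member. The classical activity gene Fos had no promoter peak in any list, as was so for 60.2% of all protein-coding genes, and an H4K8ac peak elsewhere in 4 lists.

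Release, synapse and acetylation genes had shares whose intervals held the background of 3.74%, so their counts are no result about members. Snap25 and Rims1, which codes for an active zone scaffold, were 2 of 16 synaptic vesicle genes (3.50 to 36.0%), and Dlg2 and Shank2, both postsynaptic scaffolds, were 2 of 21 genes of glutamate receptors and scaffolds (2.65 to 28.9%). At Snap25, widths were 2022 and 4110 bp in SIT, 5931 and 2315 bp in left, and 4704 and 3343 bp in right. Shank2 had a member of 5049 bp with no base common to the lists. Of 35 genes that write, erase or read histone acetylation, the 3 with a member (2.96 to 22.4%) were deacetylases, Hdac9 (2 members), Hdac10 and Hdac11. Hdac11 kept 5838 and 8053 bp in SIT, 5759 and 5401 bp in left, and 6809 and 3549 bp in right.

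Genes that every cell uses were rarely members. Of 330 genes in 7 lists, for cytosolic and mitochondrial ribosomal proteins, oxidative phosphorylation, the proteasome, aminoacyl-tRNA synthetases, RNA polymerase II and splicing, 5 had a member (1.52%; 0.649 to 3.50%), and without the exercised left list 11 (3.33%, beside a background that became 5.46%). No interval was computed for the share of 3.33%, so it is not shown to lie below that background. The 5 genes with a member were Mrpl53 and Mrpl58 of the mitochondrial ribosome, and Atp5g2, Ndufa9 and Ndufb2 of oxidative phosphorylation. None of 78 cytosolic ribosomal protein genes and none of 33 proteasome genes had one, although 14 and 10 of them had a promoter peak in the right separate sedentary list. Of the 71 genes of the 7 lists with such a peak, 5 were members (7.04%; 3.05 to 15.4%), against 821 of 4357 over all protein-coding genes with such a peak (18.8%; 17.7 to 20.03%). With the exercised left list dropped from the requirement, in an alternative chosen after seeing the data, the shares became 15.5% (8.88 to 25.7%) and 27.5% (26.2 to 28.8%), both higher than before and still apart in their intervals.

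With the exercised left list dropped, counts rose from 0 to 2 for cytosolic and from 2 to 6 for mitochondrial ribosomal proteins, from 4 to 5 for immediate early genes, from 3 to 4 for histone acetylation and from 0 to 1 for clock genes, and the counts of the other lists stayed as they were. This alternative was chosen after seeing the data, and under it the background rose from 3.74 to 5.46%.

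Of the remaining lists, none of 18 circadian clock genes and none of 39 Hox genes had a member, and Hox genes had no promoter peak in any list, against 3.74% of all protein-coding genes with a member and 60.2% with no promoter peak in any list. Among 1092 olfactory receptor genes, 1 had a member, Olfr1414, 2819 bp upstream of the start site. A list of 11 genes, a part of those that the study names for a mark or for expression, held 1 gene with a member, Bdnf; the study chose such genes on its own mice.

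**Figure D4:**
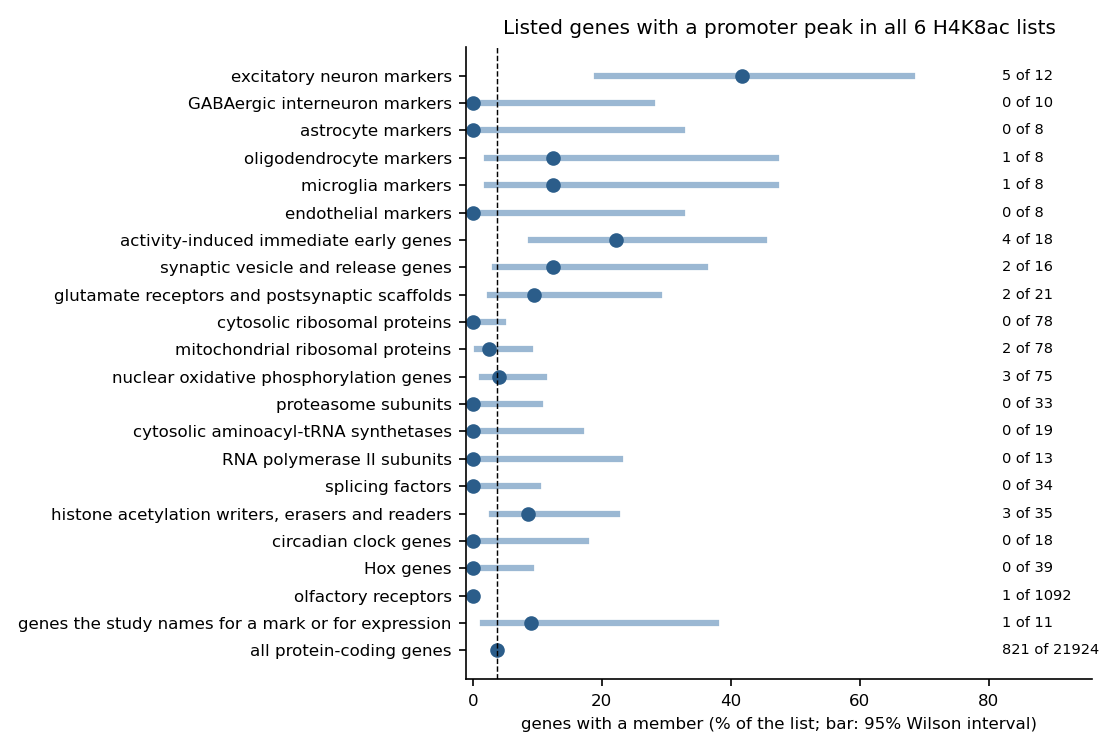
Share of the genes of each list with a member (%, dots) and its 95% Wilson interval (bars), with the counts at the right; the dashed line is the background over all protein-coding genes (3.74%). Excitatory neuron markers lie highest (5 of 12), and cytosolic ribosomal proteins are at 0 of 78.

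Promoters of members were less often CpG-rich than those of all other promoter peaks combined. The window from 250 bases before to 50 bases after the start site was called CpG-rich at a GC content of at least 50% and an observed to expected CpG ratio of at least 0.6. Of 993 different windows of members 317 were CpG-rich (31.9%; 29.1 to 34.9%), against 1917 of 4762 for the other promoter peaks (40.3%; 38.9 to 41.7%) and 10995 of 32851 RefSeq promoters of GRCm38.p6 (33.5%). Without the exercised left list in the requirement, the member share was 34.2%. This was not particular to peaks in all lists: by the number of other lists with an overlap, the share was 32.0% at 0 lists, 42.4% at 1, 43.0% at 2, 39.6% at 3 and 39.9% at 4. The median observed to expected ratio was 0.45 at members and 0.53 at the others. Peak width moved with CpG content: over the 5 width classes, from narrow to wide, 39.6%, 63.4%, 44.2%, 32.7% and 24.2% of member windows were CpG-rich, against 50.9%, 40.5%, 38.0%, 36.1% and 30.4% of the others. The share of members was thus below that of the others in the first, the fourth and the fifth class and above it in the second and the third. Members that were not CpG-rich had a median width of 3088 bp and the CpG-rich ones of 2431 bp.

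Short motifs were searched on both strands of the same windows, as letters only. The GC box GGGCGG was in 34.2% of member windows, 40.1% of the others and 35.7% of all RefSeq promoters. The hexamer CAGATG, an E-box form bound by neuronal basic helix-loop-helix factors, was in 19.6%, 16.7% and 17.2%. The CRE palindrome TGACGTCA was in 2.82%, 2.39% and 1.79%, and in 5.99% of CpG-rich member windows against 3.96% of CpG-rich windows of the others. For TATAAA the shares were 10.8%, 10.3% and 13.6%, and for CCAAT 32.6%, 34.4% and 37.4%. The remaining shares, at members, at the others and at all RefSeq promoters, were 4.73%, 5.48% and 3.89% for the ETS letters CCGGAAGT, 2.52%, 3.61% and 2.71% for the NRF1 letters GCGCATGC, 2.62%, 2.83% and 2.75% for the YY1 letters AAGATGGC, 6.75%, 7.50% and 7.15% for the E-box CACGTG, and 4.53%, 4.68% and 5.20% for the AP-1 letters TGAGTCA. The printed Neurod1 stretch holds the GC box, the neuronal E-box form, the NRF1 letters and the E-box. That of Snap25 holds TATAAA, the GC box, the CRE and the AP-1 letters. Motifs in the other printed stretches are not listed here.

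Opposed start sites, meaning start sites of 2 protein-coding genes on opposite strands within 1000 bp of each other and pointing apart, were found at 20 members (1.89%; 1.23 to 2.90%) and at 175 of the other promoter peaks (3.50%; 3.02 to 4.04%). In the widest class, the shares by start site were 1.66% and 1.16%.

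H3K27me3 took no part in the selection and was tested. In no list did more than 8 of the 1059 members overlap an H3K27me3 peak. The shares were 0.755% and 0.755% in the sedentary and exercised SIT lists, 0.472% and 0.661% in the left lists and 0.661% and 0.283% in the right lists, against 0.519%, 1.18%, 0.599%, 0.659%, 1.06% and 0.1998% of the other promoter peaks. The member share was lower in 3 of 6 lists, and the mean difference was −0.104 ± 0.265 percentage points (SD, n = 6 lists; exact two-sided sign-flip permutation test, p = 0.375, where the smallest possible p is 0.03125). When at least 50% of the bases of a member had to be covered, 0 to 2 members per list remained and the mean difference was −0.294 points (exact permutation p = 0.03125), with all 6 lists lower; a wide member is harder to cover to that share. With the others weighted to the widths of members, the mean difference was −0.188 points (exact permutation p = 0.21875). With the exercised left H4K8ac list dropped from the requirement, the sign turned (0.0965 points, exact permutation p = 0.3125). The same promoter peaks were scored in all 6 lists, so the differences are not independent of each other, and the p-values do not allow for that.

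Between exercised and sedentary mice, the share of members over H3K27me3 changed by 0 points in SIT, 0.189 in left and −0.378 in right (mean −0.0630 ± 0.288, SD, n = 3 arms; exact two-sided sign-flip permutation p = 1, where 3 arms allow no p below 0.25). In total 13 members (1.23%; 0.719 to 2.09%) met an H3K27me3 peak in any list, and 91 of the others (1.82%; 1.48 to 2.23%).

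Few members met H3K27me3 repeatedly, and mostly over part of their length. Stpg2, a sperm-tail protein gene, and Acad9, an acyl-CoA dehydrogenase that assembles complex I, did so in all 6 lists. At Stpg2, H3K27me3 peaks of 4133 to 10311 bp covered 854 to 1708 of the 3002 bp. At Acad9, H3K27me3 peaks of 3036 to 16708 bp covered 401 to 1256 of 3142 bp. Mpzl3 did so in 5 lists, and Gmppa, Zfp105 and Haus6 in 3. The exception in extent was Mir124-2hg, host gene of a microRNA of neurons, where 4 lists overlapped and the sedentary right one covered 4510 of 5025 bp.

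**Figure D5:**
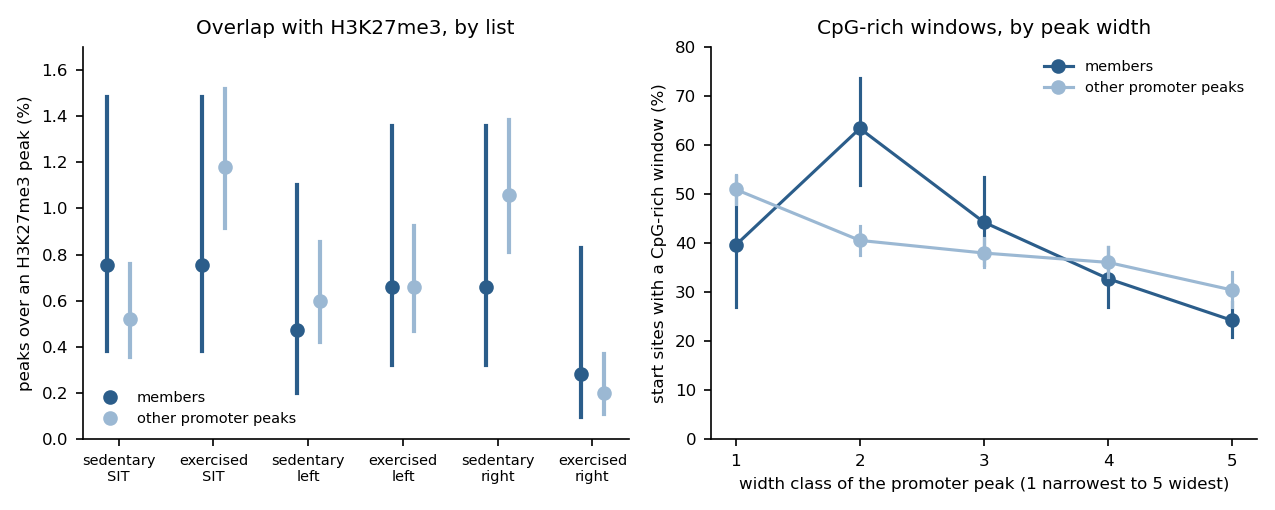
Left, share of members and of other promoter peaks over an H3K27me3 peak (%), by list, with 95% Wilson intervals as bars; no share exceeds 1.18%. Right, share of start sites with a CpG-rich window (%), by width class of the promoter peak from 1 (narrowest) to 5 (widest), with 95% Wilson intervals; in the widest class it is 24.2% for members and 30.4% for the others.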

How the data were processed

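Groups came from the labels of the 60 samples (18 groups). Per the paper's methods and the labels, the authors aligned reads to mm10 (GRCm38) with Bowtie2 2.4.1, called peaks with SEACR (stringent, 0.01) and annotated them with ChIPseeker 1.8.6. The tables they deposited hold peak positions, widths and distances in bp and an assigned gene, with no counts, signal or p-values, so depth is unknown. How libraries were combined into a list is not given in the sources used here. The authors' IgG samples were not analysed here.

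Overlaps of at least 1 bp, shares with 95% Wilson intervals and exact sign-flip tests over lists were computed in Python 3.11.15 (pandas 2.3.3, numpy 2.4.6, scipy 1.17.1, pysam 0.24.0, matplotlib 3.10.9). Width in a list is the sum over all peaks that overlap a member. Interval functions were tested on simulated data and matched base-by-base counts in 20 of 20 sets. Genes and start sites were those of GENCODE M21, which held the assigned transcript with the same version and coordinates for 99.2% of promoter peaks. Sequences were read from GRCm38.p6 and motif shares compared with RefSeq promoters of that build.

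Named were the 10 widest members (1 per gene), the 5 most shifted to wider and to narrower by the smallest shift over 3 arms, listed genes with a member (up to 8 per list) and marker genes without, up to 10 members over H3K27me3, the 5 widest peaks missing 1 list, the 5 with the smallest overlap, and the 5 genes with most members. Fos and Celf2 were named after their values were seen. The values of 1 marker gene are not reported here. Members and lists were chosen with earlier results of these data known. Alternatives varied the overlap, the lists, the promoter window, the width definition and the sequence window.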

Additional observations from a re-analysis of the deposited data

Results flagged for a closer look

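The direction of the width difference between exercised and sedentary lists differed between arms. The median log2 ratio of member width was 0.53 in SIT, and −0.29 and −0.50 in the left and right separate arms. The difference between arms was not tested, since each arm has 1 pooled list per condition and no replicate values. The exercised SIT list was also the longer one of its arm, and the exercised separate lists the shorter ones; the part of list length and depth in the ratios was not tested.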

How the results depend on the processing

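No paired analysis was possible because each list pools the samples of its group, and for the same reason no replicate could be left out in turn. The lists hold no signal, so depth could not be adjusted for. Of 119 values under an alternative, for 49 results, 81 stayed close to the value they replace, meaning within 1.5 times for a count of members, within the spread or counting interval for other values with no test, and on the same side of the threshold for a tested one. The number of members fell to 503 when each list had to cover 50% of the member, to 312 with a reciprocal overlap of 50%, to 515 with lists of equal length and to 402 with the widest 50% of each list; leaving out any list, taking another list as the base, the 1 kb promoter window and autosomes alone stayed within 1.5 times 1059. The member difference over H3K27me3 was −0.294 points with 50% coverage (past the threshold) and 0.0965 without the exercised left list (turned); leaving out that list for other results than the number of members was chosen after seeing the data. As the widest single peak, median widths were 2110 (sedentary SIT), 2858 (sedentary left) and 1854 bp (exercised right); as covered bases, they were 1894, 2463, 2336, 1937 and 1692 bp (sedentary and exercised SIT, left, and exercised right), since no more than the member is then counted. Median log2 ratios were 0.59 in SIT and −0.60 in right by the widest peak, and 0.28, −0.16 and −0.66 in SIT, left and right by covered bases. In right, the sedentary peak is the member itself and is covered in full. The ratio by covered bases there cannot be positive, so its sign is no result. As listed, 63 members were wider and 98 narrower in 3 arms. The start site lay inside 85.3% of members annotated within 1 kb. With a start site inside a member required, shares of listed genes were 0% for microglia markers, 5.56% for immediate early genes, 0% for olfactory receptors, 0% for the genes the study names and 3.16% for all protein-coding genes. By the authors' assignment, the share of all protein-coding genes was 5.46% without the exercised left list, in place of 3.74%. Over whole peaks, which are longer than the window and longer at members, shares at members and at the other promoter peaks were 5.29% and 11.7% (CpG-rich), 76.7% and 62.3% (TATA box), 94.1% and 88.1% (CCAAT box), 65.5% and 56.2% (GC box), 8.12% and 7.65% (ETS), 8.40% and 6.27% (NRF1), 20.2% and 11.3% (YY1), 5.29% and 3.16% (CRE), 38.3% and 26.9% (E-box), 41.9% and 27.7% (AP-1), and 84.0% and 72.1% (neuronal E-box). Members were thus above the others for the CCAAT box, GC box, ETS, NRF1, YY1, E-box and AP-1 letters, for which they were below them in the windows. Where a value moved, the cause was not tested beyond what the alternative changes by its construction.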

Other observations

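Genes with a member also held other H4K8ac peaks. In the right separate sedentary list, 57.8% of 950 genes with a member had at least 1 peak outside promoters (95% Wilson interval 54.6 to 60.9%), against 42.7% of 3868 genes with other promoter peaks (41.1 to 44.2%). In the exercised right list the shares were 48.4% and 30.8%, and in the exercised left list 49.6% and 28.9%. Celf2, which codes for a neuronal RNA-binding protein, had the most such peaks among genes with a member in 5 of the lists, from 45 in the exercised right list to 120 in the sedentary left list. Gene length differed in the same direction: the median was 36.9 kb for protein-coding genes with a member, 32.6 kb for those with other promoter peaks and 17.4 kb for all protein-coding genes, and the part of length in the other peaks was not tested.

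Noncoding genes made up more of the genes with a member. Long intergenic noncoding RNAs were 58 of 950 genes (6.11%; 4.75 to 7.81%), against 138 of 4136 with other promoter peaks (3.34%; 2.83 to 3.93%). Antisense RNAs were 2.74% and 1.62%. Of the 1059 members, 138 (13.0%) lay over the body of a protein-coding gene other than the assigned one, so that the assignment to the nearest start site is not the sole reading of these members.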
